A study of Homo sapiens with 12 samples.

Results

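The genes described here encode the translation initiation and elongation factors of RCH-ACV cells, an established human B-cell precursor acute lymphoblastic leukemia (ALL) line. They were chosen by symbol alone, as the names that begin with EIF1 to EIF6, EEF1 or EEF2, without pseudogenes and without EIF4EBP1. The rule found 64 genes, all of them listed in both clone tables, among 15612 genes in clone 1 and 16848 genes in clone 2. Of these, 61 were protein-coding genes with a known coding length. The other 3 were the antisense RNA genes EIF1B-AS1 and EIF3J-AS1 and the read-through gene EEF1E1-BLOC1S5. RNA-seq covered 12 libraries in 4 groups of 3: the dasatinib-sensitive subline of each clone, kept in 0.1% DMSO, and its dasatinib-resistant subline, grown in rising dasatinib up to 1 µM. Dasatinib is a multi-kinase inhibitor, and the cells express the pre-BCR. The 3 libraries of a group came from RNA of a single subline taken at separate times, so each group stands for a single resistant or sensitive subline.

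Each value below is a mean normalized count of a gene over the libraries of a clone, sensitive and resistant together, as the authors deposited it. A single mean per clone carries no spread between replicates, so the values are descriptions without SD and without a test, and no difference between sensitive and resistant cells was computed. The depth of the libraries is unknown, and the means sum to 19108037 in clone 1 and 24561485 in clone 2. As a check of the cell type, 11 of 13 markers of B-cell precursors lay in the upper 10% of genes per coding length in each clone, with IGLL1 at mean normalized counts of 9233 and 12008. MME was the lowest of these markers, at 67.7 and 67.0. Of 5 T-cell markers, 0 had a value in clone 1, and in clone 2 CD8A had 2.34. The 4 erythroid and the 4 epithelial markers had values for 0 genes each in clone 1. In clone 2 ALAS2 had 2.35 and KRT8 had 1.16. All 5 myeloid markers had values, which summed to 647 in clone 1 and 815 in clone 2. CSF1R made up most of these sums, at 614 and 768.

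Translation starts when eIF2 brings the initiator tRNA to the small ribosomal subunit, held on the scaffold eIF3, and the eIF4 factors place this subunit on the capped messenger RNA. The factors eIF1, eIF1A and eIF5 settle the choice of the start codon, and eIF5B joins the large subunit. During elongation eEF1A delivers each aminoacyl-tRNA, the eEF1B complex recharges eEF1A with GTP, and eEF2 moves the ribosome along. Among the cell's most abundant proteins, eEF1A comes in closely related forms. EEF1A1 is used by most cells, while EEF1A2 is known from muscle and neurons.

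The coding sequences of EEF1A1 and EEF1A2 are set side by side because the levels of these paralogs lie furthest apart within eEF1. In the GENCODE 29 annotation the coding sequences have 1386 and 1389 bases without the stop codon. Aligned end to end, 78.0% of the bases and 92.4% of the encoded residues were identical. Of the first 60 coding bases, 12 differed between both genes. They are given 5′ to 3′ on the strand of the gene, with the bases that differ in capitals. The EEF1A1 bases lie at chr6:73519967-73520026 on the minus strand and those of EEF1A2 at chr20:63497704-63497763 on the minus strand, both in the coding part of an exon (GRCh38, whereas the deposited tables refer to hg19).
EEF1A1: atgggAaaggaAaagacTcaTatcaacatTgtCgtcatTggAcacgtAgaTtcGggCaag
EEF1A2: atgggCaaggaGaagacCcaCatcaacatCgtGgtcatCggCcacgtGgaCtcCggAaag
Of 1965 windows of 50 bases along EEF1A2 a share of 0% occurred in a transcript of another gene. EEF1A1 also shared 0% with other protein-coding genes, but 68.8% of its 1874 windows occurred in 28 pseudogenes or noncoding genes. Other factors with a large share of windows in such genes were EIF4B at 66.1%, EEF1G at 62.8%, EEF1B2 at 59.4%, EIF4E at 52.8%, EIF3F at 46.9%, EIF3L at 46.8% and EEF2KMT at 30.7%. How the authors' counting treated reads with several origins is not given in the sources used here.

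As a group the factors were among the most abundant transcripts of both clones. Divided by the coding length in kilobases, their median level was 3206 in clone 1 and 4117 in clone 2, beside 331 and 371 over all genes with a coding length. The median member stood at percentile 93.4 of 13793 genes in clone 1 and at percentile 93.8 of 14710 genes in clone 2. In the upper 10% of genes lay 35 of the 61 factors in clone 1 and 36 in clone 2. Above the median of all genes lay 56 and 58. The 64 genes were 0.410% and 0.380% of the genes listed and held 3.83% and 3.82% of the summed mean normalized counts. Without EEF1A1 they held 2.22% in each clone. These shares include the near-identical copies EIF3C and EIF3CL, each at 0.189% in clone 1 and 0.187% in clone 2. Whether the same reads were counted for both copies was not tested. EEF1G, whose counts are uncertain for a like reason, added 0.196% and 0.199%.

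**Figure D1:**
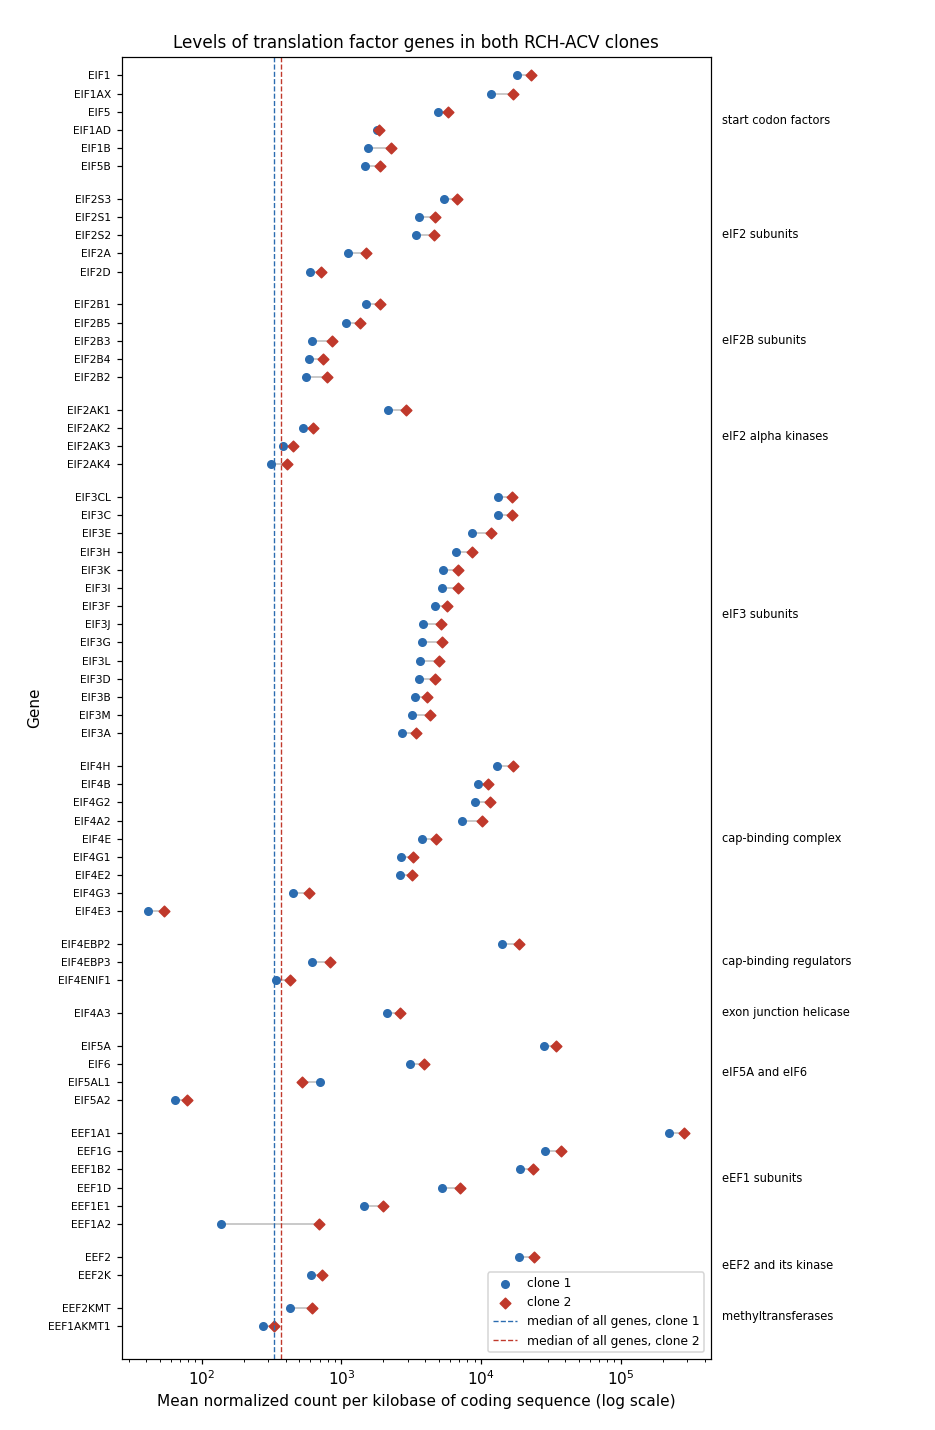
Mean normalized count per kilobase of coding sequence (x axis, log scale) of the 61 protein-coding translation factor genes (y axis), sorted within groups by role, with clone 1 as blue circles, clone 2 as red diamonds and dashed lines at the median of all genes with a coding length (331 and 371). All 14 eIF3 genes lie well to the right of both lines, EEF1A1 is farthest to the right at 221382 and 283943, and EEF1A2 shows the widest gap between clones, from 138 to 697.

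The elongation factors included the highest of all members. EEF1A1, which delivers aminoacyl-tRNA, reached a mean normalized count of 306835 (clone 1) and 393545 (clone 2). These were 1.61% and 1.60% of all counts in the tables, and per coding length EEF1A1 ranked 2 in both clones. EEF2, the translocase, had mean normalized counts of 48253 and 61587. Per kilobase of coding sequence, EEF1A1 was 11.8 times the level of EEF2 in clone 1 and 11.9 times in clone 2. The genes of eEF1B were lower than EEF1A1. The exchange subunits EEF1B2 and EEF1D had 19071 and 5254 per kilobase in clone 1 and 23586 and 7069 in clone 2. This gap depends on the coding lengths used, 675 and 2091 bases, the longest of each gene. In mean normalized counts EEF1B2 and EEF1D were closer, with 12873 and 10986 in clone 1 and 15920 and 14782 in clone 2. EEF1G, their structural partner, had 28539 and 37367 per kilobase. Of the EEF1G windows, 98.7% also occurred in other protein-coding genes of GENCODE 29, for the most part in the gene AP002990.1, so its counts are uncertain. EEF1E1, which belongs to the multi-tRNA-synthetase complex, had 1460 and 1981 per kilobase. It shared 33.5% of its windows with the read-through gene EEF1E1-BLOC1S5, whose mean normalized counts of 973 and 1308 exceeded those of EEF1E1 itself, 762 and 1034.

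EEF1A2 was the lowest of the eEF1 genes in both clones. Its mean normalized count was 191 in clone 1 and 968 in clone 2. Per kilobase these counts gave 138 and 697, or percentiles of 33.2 and 65.2 among the genes of each clone. EEF1A1 thus stood 1608 times above EEF1A2 in clone 1 and 407 times above it in clone 2. In percent, EEF1A2 had 0.0622% and 0.245% of the EEF1A1 level per coding length. The markers of muscle and neuron, the tissues known for EEF1A2, were low, with 3 of 4 having values. Per coding length these lay at percentiles of at most 9.63 in clone 1 and 14.2 in clone 2. ACTA1 had mean normalized counts of 4.29 and 7.43, SYN1 18.4 and 20.1, and RBFOX3 4.99 and 10.4.

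The regulators of elongation were expressed at much lower levels than the factors they modify. EEF2K, the kinase that inactivates eEF2, had mean normalized counts of 1323 and 1580. Per kilobase of coding sequence EEF2 was 30.8 and 32.9 times higher than EEF2K, and per kilobase of transcript, UTRs included, 85.2 and 91.0 times. The methyltransferases EEF1AKMT1, which acts on eEF1A, and EEF2KMT, which acts on eEF2, had 273 and 432 per kilobase in clone 1 and 327 and 614 in clone 2. Both were nearer to the median of all genes than to their substrates.

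Among the groups with more than 1 member, eIF3 was the only one that lay as a whole in the upper 10% of genes per coding length. All 14 genes did so in both clones, at levels between 2705 and 13192 per kilobase in clone 1 and between 3430 and 16794 in clone 2. The lowest was EIF3A, the largest scaffold subunit, with mean normalized counts of 11215 and 14220. The highest were EIF3CL and EIF3C, which encode nearly identical proteins, with 99.9% identical coding bases. EIF3C had mean normalized counts of 36090 and 45963 and EIF3CL 36173 and 46049, a ratio of 0.998 in each clone. Of the 50-base windows, 94.4% of EIF3C also occurred in EIF3CL and 97.2% of EIF3CL in EIF3C. With such overlap the counts cannot be assigned to either gene. Without these copies the highest eIF3 gene was EIF3E, at 8690 and 11880 per kilobase. EIF3M has 1122 coding bases in a transcript of 5051 bases, so its place in the upper 10% may not hold per kilobase of transcript.

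In the eIF2 system the 3 subunits of the carrier exceeded each of the subunits of its exchange factor and each of the kinases. The subunits of eIF2 stood at 3625 (EIF2S1, the subunit phosphorylated under stress), 3427 (EIF2S2) and 5468 (EIF2S3) per kilobase in clone 1. In clone 2 the levels were 4690, 4593 and 6754. The 5 subunits of eIF2B, which reloads eIF2 with GTP, ranged from 558 (EIF2B2) to 1509 (EIF2B1) in clone 1 and from 736 (EIF2B4) to 1901 (EIF2B1) in clone 2, with 0 of 5 in the upper 10% of genes. EIF2S1 was 6.50 and 5.96 times the level of EIF2B2, or 10.5 and 9.65 times per kilobase of transcript. Of the kinases that phosphorylate eIF2, EIF2AK1, which senses heme, was the highest at 2164 and 2921 per kilobase. EIF2AK2, which senses double-stranded RNA, had 528 and 624, and EIF2AK3, the sensor of the endoplasmic reticulum, had 382 and 448. The lowest was EIF2AK4, which senses amino acid shortage, at 315 and 405. The alternative carriers EIF2A and EIF2D had 1125 and 592 in clone 1 and 1503 and 710 in clone 2.

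Among the factors at the start codon, EIF1 and EIF1AX were far above the rest of their group per coding length. EIF1 had 18250 and 22951 per kilobase and EIF1AX 11834 and 16857, followed by EIF5 at 4919 and 5817. EIF1B, a close relative of EIF1, had 1563 and 2267, so that EIF1 was 11.7 and 10.1 times higher. EIF5B, which joins the subunits, had 1471 and 1888. EIF1AD was placed in this group without evidence here that it acts at the start codon, and had 1790 and 1873. The coding sequence of EIF1AX has 432 bases in a transcript of 4427 bases, so its level depends strongly on which length is used. EIF5 had higher mean normalized counts, 6360 and 7522 against 5112 and 7282, on a shorter transcript of 3417 bases. Per kilobase of transcript EIF1AX was therefore below EIF5 in both clones.

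The cap-binding group held abundant scaffolds and helicase cofactors beside scarce relatives. EIF4H and EIF4B, which stimulate the eIF4A helicase, had 12932 and 9525 per kilobase in clone 1 and 16973 and 11307 in clone 2. EIF4A2, a form of this helicase, had 7269 and 10191. EIF4A1 did not occur among the symbols listed once in either clone, so it has no value here. The read-through gene SENP3-EIF4A1, outside the rule and named after its values were seen, had mean normalized counts of 23749 and 32639, against 1955 and 2435 for SENP3. EIF4G2, a scaffold that lacks the binding site for eIF4E, exceeded the main scaffold EIF4G1 3.40 and 3.55 times per kilobase, with 9043 and 11552 against 2663 and 3256. EIF4G3 had 454 and 586. The cap-binding protein EIF4E had 3787 and 4767 per kilobase. Its relative EIF4E2, a repressor at the cap, had 2649 and 3216, while EIF4E3 was the lowest of all 61 factors, at 41.4 and 53.9. In mean normalized counts EIF4E3 had 27.8 and 36.2.

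Of the proteins that restrain eIF4E, EIF4EBP2 had mean normalized counts of 5092 and 6744 and EIF4EBP3 had 184 and 250. Per kilobase of coding sequence EIF4EBP2 was 23.0 and 22.5 times higher than EIF4EBP3, but with the whole transcript as length the ratio was 2.63 and 2.57. The EIF4EBP2 transcript has 7257 bases around 360 coding bases. Of the EIF4EBP3 windows, 71.8% were shared with the read-through gene ANKHD1-EIF4EBP3. EIF4ENIF1, which carries eIF4E into the nucleus, had 341 and 432 per kilobase. EIF4A3, a relative of the helicases that serves in the exon junction complex, had 2134 and 2632, just under the upper 10% of genes, which began at 2267 in clone 1 and 2748 in clone 2.

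EIF5A, which helps the ribosome past difficult peptide bonds, had mean normalized counts of 15741 and 19165, or 28210 and 34347 per kilobase. Its relative EIF5A2 had mean normalized counts of 29.6 and 35.9. In these counts EIF5A was 532 times EIF5A2 in clone 1 and 533 times in clone 2. The ratio depends on the lengths used, and the longest coding sequences had 558 and 459 bases. It was 437 and 439 per kilobase of coding sequence, and 3666 and 3677 per kilobase of transcript. EIF6, which keeps the ribosomal subunits apart, had 3087 and 3894 per kilobase of coding sequence. For the copy EIF5AL1 the mean normalized count was 327 (clone 1) and 242 (clone 2). Part of its sequence cannot be told from EIF5A, as 31.4% of the EIF5A windows occurred in EIF5AL1 and 11.6% of the EIF5AL1 windows in EIF5A.

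The ratio of clone 2 to clone 1 was between 1.17 (EIF2AK3) and 1.46 (EIF3J-AS1) for all factors but EEF1A2 above this range and EIF1AD and EIF5AL1 below it. The tables were normalized separately, and the library names carry a different letter for each clone, which the labels do not explain. What this letter stands for and the clone cannot be told apart in these values. Each value averages sensitive and resistant libraries, so a difference in a single subline cannot be told apart from one in both sublines. Over 15582 genes in both tables the median ratio of clone 2 to clone 1 was 1.29, a shift of 0.37 on the log2 scale, and the differences below are relative to it. The median of the 64 factors was -0.01 on this scale, beside 0 over all shared genes by construction. Within 0.25 of the median gene lay 61 of 64 factors (95.3%), beside 76.1% of all shared genes. Weakly expressed genes scatter more, and among genes with a mean of at least 50 in both tables the shares were 95.1% of 61 factors and 86.7% of 11890 genes. Among these, the middle 50% of the factors spanned 0.123 and that of all genes 0.173 on the log2 scale. This minimum does not match the sets by level. Without it, the median mean normalized count was 3425 and 4444 for the factors and 406 and 442 for all genes listed. The factors were not compared with genes of like level.

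**Figure D2:**
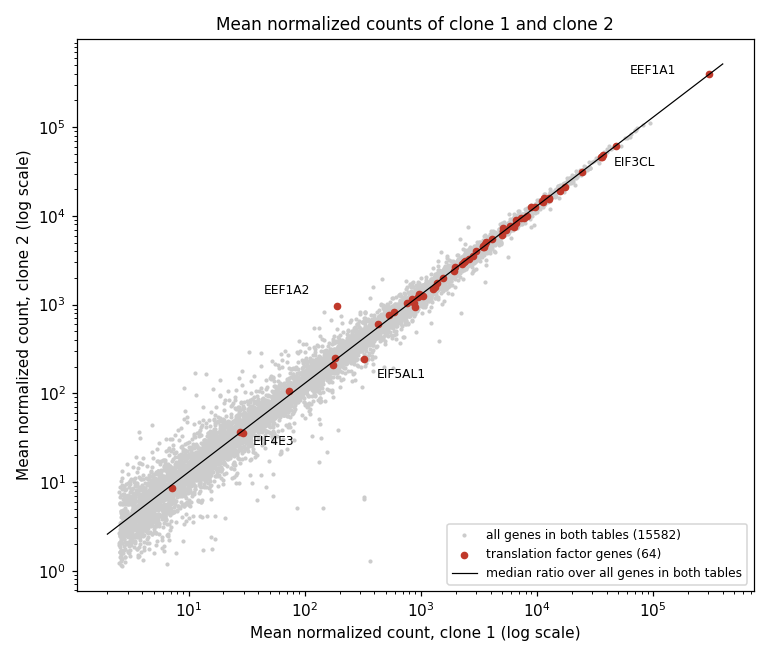
Mean normalized count in clone 1 (x axis, log scale) and clone 2 (y axis, log scale) for the 15582 genes in both tables (grey) and the 64 translation factor genes (red), with the median ratio of 1.29 as a line. Most red points lie close to the line, from EIF1B-AS1 (7.15 and 8.47) to EEF1A1 (306835 and 393545), while EEF1A2 lies above it (191 and 968) and EIF5AL1 (327 and 242) and EIF1AD (886 and 927) lie below it.

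Of the factors, EEF1A2 and EIF5AL1 lay beyond 0.5 on the log2 scale, or 3.12% beside 10.7% of all shared genes. Among genes with a mean of at least 50 in both tables the shares were close, at 3.28% of the factors and 3.76% of all genes. Beyond 1 lay EEF1A2 alone, or 1.56% of the factors beside 3.05% of all shared genes. With the same minimum of 50 the order was the opposite, at 1.64% and 0.706%. EEF1A2 was higher in clone 2 by 1.97 on the log2 scale, or 3.93-fold, and held rank 21 of 15582 genes from the top. EEF1A1 differed by -0.01. EIF5AL1 was lower in clone 2 by a factor of 0.573, with a log2 difference of -0.80. EIF5A itself differed by -0.08. In bulk RNA, fewer cells that express a gene and less of its RNA per cell cannot be told apart.

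The remaining differences were small. After EEF1A2 the highest values belonged to EIF3J-AS1 at 0.18, EIF1B at 0.17, EIF1AX at 0.14 and EEF2KMT at 0.14. At the other end EIF1AD had -0.30, which turned to 0.07 without scaling of the tables. It was followed by EIF2AK3 at -0.14, EIF2AK2 at -0.13 and EIF5 at -0.12. These 3 were likewise above 0 without scaling, when the median gene itself lies at 0.37. By role, the eIF3 genes ranged from -0.08 to 0.11 and the eIF2B genes from -0.03 to 0.13. Whether such differences exceed the spread between libraries was not tested.

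**Figure D3:**
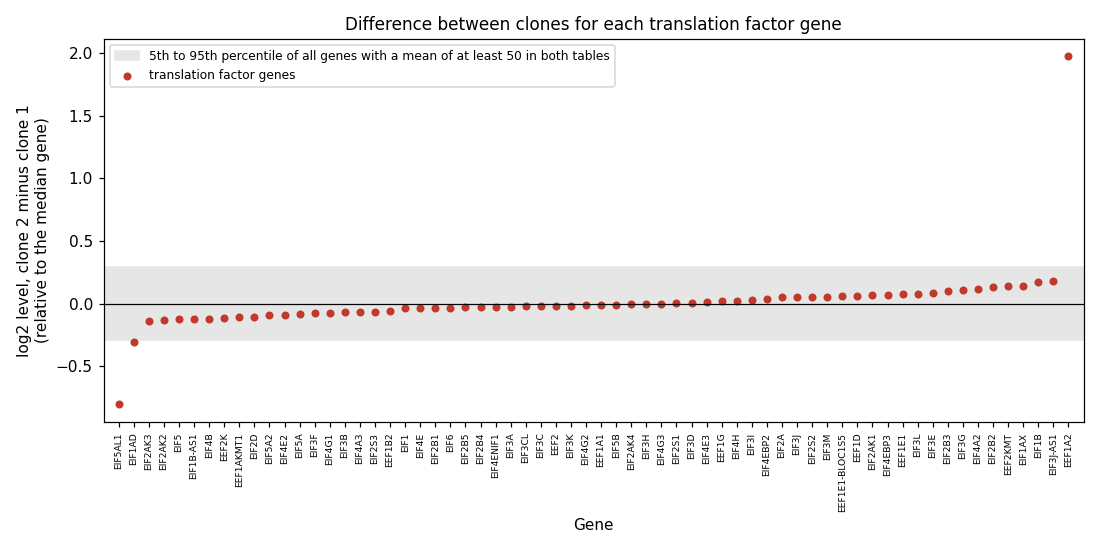
Difference in log2 level, clone 2 minus clone 1 relative to the median gene (y axis), of the 64 translation factor genes in rising order (x axis), with the range from the 5th to the 95th percentile of genes with a mean of at least 50 in both tables (-0.29 to 0.29) in grey. EEF1A2 at 1.97 lies above the band, EIF5AL1 at -0.80 and EIF1AD at -0.30 lie below it, and the other genes lie within it.

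Many transcripts of the translation machinery are known to begin with a cytosine and a run of pyrimidines, the 5′ terminal oligopyrimidine tract through which mTORC1 controls their translation. The start windows of RefSeq (GRCh38.p14, 250 bases before to 50 after each annotated start) held 49 of the 61 coding factors. A tract was counted where the start base was C and the next 4 bases were C or T on the strand of the gene. Only the annotated start base was tried, so a tract that begins a few bases away counts as absent. It was found at an annotated start of 12 of 49 factors (24.5%), 7.30% of 10657 genes of clone 1 and 7.20% of 11283 genes of clone 2. Of all 35116 windows 4.07% held it. The members were EEF1A1, EEF1B2, EEF2, EIF4B, EIF4A2, EIF3D, EIF3F, EIF3K, EIF3M, EIF2A, EIF2D and EIF2S3. Windows of 25 bases, from 10 bases before the start, are shown for both main elongation factors, an exchange subunit and an eIF3 subunit, followed by a highly expressed factor without the tract. Capitals mark the pyrimidines from the start base on.
EEF1A1, chr6:73521018-73521042, minus strand: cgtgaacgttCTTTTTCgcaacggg
EEF2, chr19:3985449-3985473, minus strand: cgtcagcgttCTCTTCCgccgtcgt
EEF1B2, chr2:206159885-206159909, plus strand: ctcttcgggtCCTTTTTCCTCTCTT
EIF3F, chr11:7987327-7987351, plus strand: cttccgcctcCTTCTTTCTCgacaa
EIF1, chr17:41688875-41688899, plus strand: ccgcccctctgccccagtcactgag
The 12 factors with a tract had a median of 5402 per kilobase in clone 1 and 6784 in clone 2, and those without it 1790 and 2267. Both sets overlapped widely, from 592 (EIF2D) to 221382 (EEF1A1) with the tract and from 41.4 (EIF4E3) to 28539 (EEF1G) without it in clone 1. Over all genes of clone 1 with a window, the median percentile of the level was 61.0 with the tract and 51.2 without it.

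Other genes of the translation pathway were also high, though less so than the factors. All 22 genes of a mixed list chosen by hand had values. It held release and recycling factors, poly(A)-binding proteins and their partners, enzymes of hypusine synthesis and kinases. Also on it were EEFSEC, DENR, MCTS1, PDCD4, TPT1 and EIF4EBP1, the last a gene that the rule left out. The median percentile of the list was 83.3 in clone 1 and 84.9 in clone 2. In each clone 19 of its genes lay above the median of all genes. In the upper 10% lay 9 in clone 1 and 10 in clone 2. TPT1, a binding partner of eEF1A, had 47914 and 60267 per kilobase, and PABPC1, the poly(A)-binding protein, had 22135 and 31758. EIF4EBP1, the best known brake of eIF4E, had 5744 and 7645. MTOR, the kinase upstream of these brakes, had 499 and 596.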

How the data were processed

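RNA-seq of 12 libraries was analysed from a table per clone. According to the submitters' processing notes hg19 was the build, and FastQC 0.10.1, bedtools 2.19.0, BWA (0.7.7-r441 and 0.6.2-r126), DESeq2, Picard 1.107 and SAMtools were run. For the annotation, read counter and strandedness nothing is stated in the sources used. The column used is a signal that the authors deposited, gene counts divided by size factors and averaged over all libraries of the clone. The remaining columns hold the authors' own comparison of resistant with sensitive cells (fold change, standard error, statistic, p-values, direction) and were not used. The count test planned for resistant against sensitive cells needs counts per library and was therefore not run.

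Symbols were matched by the stated rule with Python 3.11.15 and pandas 2.3.3. EIF4EBP2 and EIF4EBP3, which end like pseudogenes, were kept, and EEF1DP3 was left out. Means were divided by the longest coding sequence of the gene in GENCODE 29, found for 88.3% of genes in clone 1 and 87.3% in clone 2, 369 of them through an older symbol. Percentiles count genes at or below a level. Clone ratios were divided by their median over shared genes. Windows of 50 bases of the same transcript were sought in all GENCODE 29 transcripts. Named genes were EEF1A1, EEF1A2, the extremes of each role group and of the clone difference, and near-identical copies. Further members were added to describe each group. Members and lists were chosen with earlier results of these data known.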

Additional observations from a re-analysis of the deposited data

How the results depend on the processing

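No paired analysis was possible because the tables hold a single mean per clone, and for the same reason no replicate could be left out. Of 32 alternative values, 15 were unchanged or within 1.5 times and 17, which have no replicate spread to be judged against, moved by any amount. The counts of members and of members in the upper 10% of genes stayed within 1.5 times under every alternative computed. The median percentile in clones 1 and 2 became 92.8 and 93.5 without length, 92.8 and 92.9 with a minimum of 10, 92.3 and 92.4 with a minimum of 50, 91.5 and 92.3 per kilobase of transcript and 93.2 and 93.4 without the 4 members that share over 50% of their windows with another coding gene (EEF1G, EIF3C, EIF3CL and EIF4EBP3). EEF1A2 had 0.0623% and 0.246% of the EEF1A1 level without length and 0.0595% and 0.235% per kilobase of transcript. The median difference between clones was -0.0061 when scaled to the table sums, 0.36, of the opposite sign, without scaling and -0.0078 with a minimum of 50. The alternatives by transcript length and without shared members were chosen after seeing the data. Library depth is unknown, and the 3 members with a mean under 50 (EIF4E3, EIF5A2 and EIF1B-AS1) are the least certain.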
